A study of Dugesia japonica with 19 samples.

Results

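Of the 5847 sites listed as carrying N6-methyladenosine (m6A) in regenerating pieces of the planarian Dugesia japonica, 890 (15.2%) were listed in head, trunk and tail alike. A site is a motif position on 1 strand of an assembled transcript contig. It was counted as shared when at least 1 head library, 1 trunk library and 1 tail library listed it, on any day. The other 4957 sites were listed in 1 or 2 tissues, among them 2247 in head alone, 945 in tail alone and 655 in trunk and tail without head. The shared sites lay on 595 contigs.

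Planarians are freshwater flatworms that rebuild missing body parts from a pool of stem cells called neoblasts. The m6A mark is written on messenger RNA by a methyltransferase complex, can be read by proteins of the YTH family and is known to affect splicing, decay and translation of transcripts. The assay, m6A-REF-seq, reads single bases with MazF, a bacterial endoribonuclease that cuts at ACA motifs and is blocked where the adenosine at the cut is methylated. Uncut reads across a motif therefore count the methylated molecules together with any unmethylated ones that escaped digestion.

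The study followed the mark along the body axis during regeneration. Animals, 10 to 20 per pool according to the labels, were cut into head, trunk and tail pieces, and there was 1 MazF-treated library of poly(A) RNA for each tissue on days 0, 1, 3, 5, 7 and 10, or 18 libraries in all. A single control library of intact animals, made by in vitro transcription (IVT) and so free of modifications, was set against each of them. No genotype, RNA interference or drug treatment is named in the labels, and the contigs carry no gene names in the files. Pieces were pooled before extraction, so the spread over days is that between pools and includes any change with time.

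The members were selected on measured values. A listed row had a level of at least 0.1, where the level is the uncut share of reads in the library minus that in the control, and at least 11 uncut reads in the library or in the control. A site missing from a library may have been weakly methylated, not transcribed or too thinly covered, so it had no value there. For the same reason the membership, the number of libraries and the medians over the list are described here without a test, and tests compare only listed values. The control alone supplied 11 uncut reads at 853 shared sites (95.8%), against 59.1% of the other sites and 28.8% of those listed in head alone. At these sites a library could list the site on 1 read.

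Membership was often thin. A shared site was listed in a median of 9 of the 18 libraries, against 2 for the other sites. At the low end, 38 sites on 36 contigs were listed in exactly 3 libraries, the fewest the rule allows, on a median of 1 read (range 1 to 41). In at least 1 of the tissues, 513 of the 890 sites rested on a single library. Only 377 were listed in 2 or more libraries of every tissue, 140 in 4 or more, and 39 in all 18. On the same day, all 3 tissues listed between 93 (day 1) and 336 (day 7) of the sites, and 412 were never listed in all 3 tissues on any 1 day.

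Some sites missed the rule narrowly. Position 232 of TRINITY_DN155747_c0_g1_i1 was listed in all 6 trunk and all 6 tail libraries and in no head library, with median levels of 0.244 in trunk and 0.291 in tail. Position 677 of TRINITY_DN209_c0_g1_i1 was listed in 6 head and 5 trunk libraries and in no tail library, at a level of 0.114 in each of them. Position 242 of TRINITY_DN130500_c1_g1_i2 was listed in 4 head and 6 tail libraries and in no trunk library, with a median level of 0.831 in both tissues. Just inside the rule, the best level a site reached in its weakest tissue was 0.101 at the lowest, and 42 members had a best level under 0.11 in some tissue.

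Head libraries listed 526 ± 109 of the shared sites (SD, n = 6 days), trunk libraries 480 ± 149 and tail libraries 407 ± 189. In head the lowest, median and highest numbers were 314, 555 and 621. In trunk they were 258, 497.5 and 657, and in tail 196, 399.5 and 751. The tissues overlapped throughout. The lowest head library was that of day 10, the lowest trunk library that of day 0 and the lowest tail library that of day 1.

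**Figure D1:**
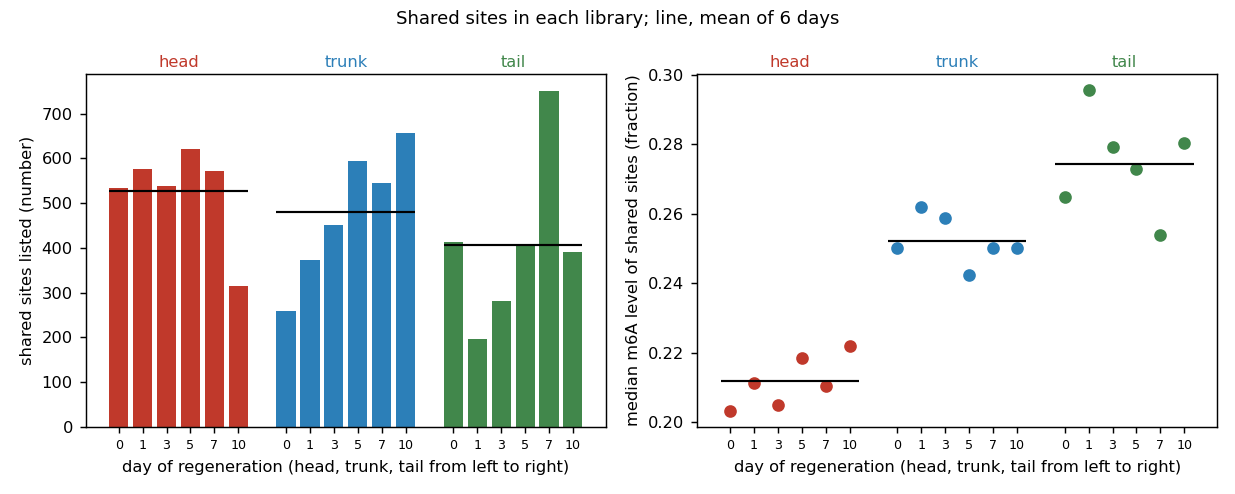
Left, the number of shared sites listed in each library; right, their median m6A level (a fraction), both by tissue and by day of regeneration, with the mean of 6 days as a line. The numbers overlap between tissues, while the 6 head medians lie between 0.203 and 0.222, below every trunk and tail median.

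The shared sites took most of the reads. They made up 36.2% of the 23432 listed rows and 80.7% of the reads at listed sites. Of the reads in a library's list, they held 87.9% ± 4.10 in head (SD, n = 6 days), 81.6% ± 2.66 in trunk and 59.4% ± 4.99 in tail. The 6 tail libraries lay between 54.1% and 66.1%, below all head and trunk libraries, which lay between 77.6% and 92.0%. A single contig, TRINITY_DN678_c0_g2_i4, supplied 38.7% of the member reads in head, 89.2% in trunk and 64.8% in tail. Without this contig the shares were 81.4%, 74.3% and 52.8% in head, trunk and tail.

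Coverage of the typical shared site was low. The median shared site had 14 reads in a head library (mean of 6 daily medians), 3.5 in a trunk library and 2.67 in a tail library. A single read was all that stood behind 23.5% of the member rows, and 61.6% had fewer than 10 reads. The number of shared sites with at least 10 reads was 295 ± 120 per head library (SD, n = 6 days), 145 ± 66.4 per trunk library and 102 ± 79.6 per tail library. Only 151 sites had 10 reads or more in at least 1 library of every tissue.

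Most contigs carried a single shared site. This held for 427 of the 595 contigs, while 107 carried 2 and 61 carried 3 or more. The contigs were between 314 and 9437 bases long, with a median of 1586. Shared sites on the same contig were a median of 130.5 bases apart, and the closest pair was 4 bases apart, so that neighbouring sites can be read by the same fragments. The member contigs also held 1233 listed sites that were not shared, and on 168 contigs every listed site was shared.

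The minus strand of the contig held 509 of the 890 shared sites (57.2%, 95% Wilson interval 53.9 to 60.4), close to the 56.3% of the other sites. Assembled contigs need not run in the direction of their gene, so position was also read along the strand of the site, from 0 at its 5′ end to 1 at its 3′ end. On this scale the median shared site lay at 0.569 and the median other site at 0.565. The 3′ side of the middle held 57.4% of the shared sites (511 of 890, 95% Wilson interval 54.1 to 60.6) and 57.4% of the others. Both intervals cover counting error only and treat sites of 1 contig as separate.

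The ends of contigs differed a little. The 10% of the contig nearest the 5′ end of the strand held 3.37% of the shared sites and 6.27% of the others, and the 10% nearest the 3′ end held 6.29% and 6.82%. At the 5′ end the share was 9.70% for sites listed in head alone. For sites of the other tissue combinations it ran from 2.60% (trunk and tail) to 4.76% (head and tail), so the low share was not particular to shared sites. No listed site of any kind lay within 100 bases of the 3′ end of its strand, and for the shared sites the median distance to that end was 581 bases. In m6A maps of other animals the mark is known to gather near the stop codon and in the 3′ UTR. Which part of a transcript the planarian sites fall in was not read here, since the contigs come without annotated coding regions.

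**Figure D2:**
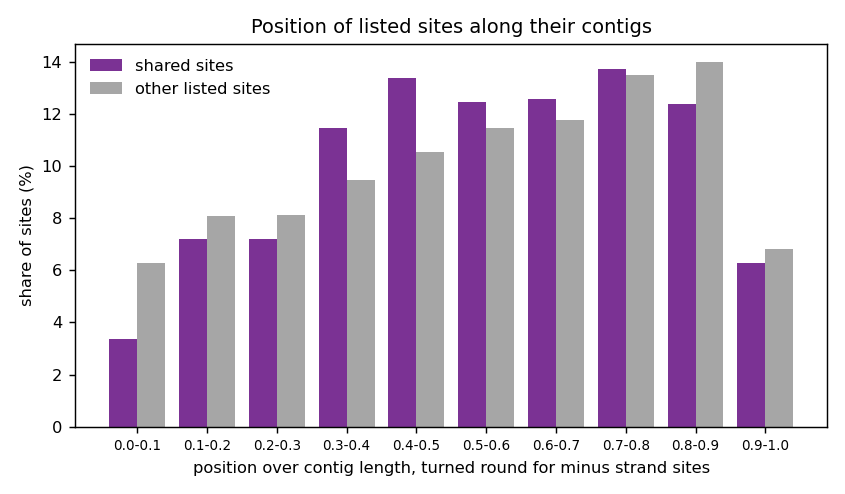
Share of sites (percent, vertical axis) in 10 equal stretches of the contig, counted along the strand of the site, for the 890 shared sites (left bars) and the 4957 other sites (right bars). Both rise towards the 3′ side and drop in its last stretch (6.29% and 6.82%), and the stretch nearest the 5′ end holds 3.37% of shared sites and 6.27% of the others (9.70% of those listed in head alone).

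The control limited what could be measured at a shared site. Its uncut share had a median of 0.75 over the 890 sites, with quartiles of 0.557 and 0.846, against a median of 0.7 over the other sites. It passed 0.5 at 695 shared sites (78.1%) and was under 0.2 at 57. Since the level is the library's uncut share minus this value, no site can exceed 1 minus the control share. A shared site with the median control share could thus reach a level of 0.25 at most. Median control coverage was 30 reads over shared sites (quartiles 19 and 64), against 18 over the others.

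Many shared sites sat at that ceiling. No read was cut in 81.5% of the member rows and 81.9% of the other rows. Among rows with at least 10 reads, the share with no cut read was 50.1% ± 1.60 per head library (SD, n = 6 days), 63.6% ± 5.50 per trunk library and 71.5% ± 5.22 per tail library. Head ranged from 47.8% to 52.6%, below all trunk libraries (54.5% to 70.1%) and all tail libraries (62.5% to 78.4%), and trunk and tail overlapped. In no library was a read cut at 489 of the 890 sites, or 54.9%, against 74.0% of the other sites. The other sites were listed in a median of 2 libraries.

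Shared sites had a median level of 0.212 ± 0.0074 in head libraries (SD, n = 6 days), 0.252 ± 0.0070 in trunk libraries and 0.274 ± 0.0143 in tail libraries. Head medians lay between 0.203 and 0.222, trunk medians between 0.242 and 0.262 and tail medians between 0.254 and 0.296. Head did not overlap the other tissues, while trunk and tail overlapped. On each of the 6 days head was lowest and tail highest. The sites listed changed between libraries, so these medians compare lists and not the same sites. Control shares of the listed sites fell from head (0.749, mean of daily medians) to trunk (0.736) and tail (0.721). Their ceiling thus rose in the same order as the levels. Sites listed in all 18 libraries share their ceilings, and their medians were 0.281 (head), 0.335 (trunk) and 0.351 (tail). Read depth moved the other way, with median reads of 14, 3.5 and 2.67 in head, trunk and tail. The parts of depth and of the ceiling in the order were not tested. Among rows with at least 10 reads the medians were 0.220 ± 0.0229, 0.316 ± 0.0121 and 0.375 ± 0.0377 in head, trunk and tail.

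High levels were less frequent in head. A level of 0.5 or more was held by 10.2% ± 0.338 of the shared sites listed in a head library (SD, n = 6 days), 18.98% ± 1.03 in trunk and 23.6% ± 2.13 in tail. Head ranged from 9.67% to 10.6%, trunk from 17.8% to 20.2% and tail from 21.4% to 27.0%, with no overlap. The sites listed changed from library to library, so these shares compare lists and not the same sites.

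The gap between tissues was wide where the control was well cut and narrow where it was not. At the 57 shared sites with a control share under 0.2, head had a daily median level of 0.410 ± 0.0326 on average (SD, n = 6 days), trunk one of 0.807 ± 0.0127 and tail one of 0.850 ± 0.0044. In rows with at least 10 reads their mean uncut share came to 0.546 (head), 0.832 (trunk) and 0.948 (tail). At the 75 sites with a control share of 0.2 to 0.4 the levels were 0.595, 0.641 and 0.674 in head, trunk and tail. The gap was wider in their rows with at least 10 reads, where the mean uncut share was 0.720, 0.887 and 0.979. At the 341 sites with a control share of 0.8 or more the levels were 0.139, 0.140 and 0.141, where the ceiling leaves almost no room for a difference.

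On the same day and at the same site, libraries could be paired where both had at least 10 reads. Head was lower than trunk at 27 of 45 shared sites on day 0, equal at 11 (within a tolerance of 1e-09) and higher at 7. On day 5 the numbers were 98 lower, 52 equal and 9 higher among 159 sites. Head was below tail at 30 of 50 sites on day 0 and at 43 of 66 on day 5, and above it at 8 and 4. Trunk and tail were equal at 20 of 48 sites on day 0 and 75 of 141 on day 7, and their median difference was 0 on each of the 6 days. Head was lower more often than higher on every day against either tissue. Most of these gaps were small. The median difference lay between -0.029 (day 5) and -0.0043 (day 10) for head minus trunk, and between -0.037 (day 3) and -0.0048 (day 7) for head minus tail. Depth differed between the tissues, and its part in these counts was not tested.

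Which tissues cut a site at all was also uneven. Of the 151 shared sites with at least 10 reads in some library of every tissue, 33 had no cut read in any library and 35 had cut reads in all 3. Head alone had cut reads at 32 sites, trunk alone at 5 and tail alone at 3. Head and trunk, without tail, had them at 36, head and tail at 6, and trunk and tail at 1. Head had the most reads per site, and the part of depth in these numbers was not tested.

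With at least 10 reads on at least 4 days, the SD of the uncut share over days had a median of 0.0135 at 264 shared sites in head, 0.000735 at 122 in trunk and 0.00193 at 67 in tail. It was 0, within a tolerance of 1e-09, at 97 of these sites in head, 54 in trunk and 27 in tail, and at each of those no read was cut on any of the days, so the share stood at its upper bound. It passed 0.1 at 10 sites in head, 4 in trunk and 1 in tail.

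Tests were run site by site on the level with limma, with day as a block, over libraries with at least 10 reads and sites with at least 4 such days in both tissues. Sites without any cut read were left out. A site with cut reads in only 1 tissue of a pair was kept, and there that tissue could only be the lower one. The head comparisons share the 6 head libraries, so their counts are not independent of each other. At 75 shared sites at least 1 tissue pair could be tested, and 36 of them, on 25 contigs, were called in some pair at a Benjamini-Hochberg adjusted p under 0.05. Listing at a level of 0.1 or more removes the lowest values from every tissue, so a difference seen between listed libraries is one among listed values.

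Head was lower than trunk at 29 of the 66 shared sites tested, on 21 contigs, and higher at 0 (limma; 35 lower and 2 higher at an unadjusted p under 0.05; 27 lower and 2 higher with a quasi-binomial model of the reads). Here and below, the quasi-binomial model supplied the p-values only, and its directions are those of the fit to the level. Over all 69 sites tested in the series, 43.5% were called lower and 0% higher in head, so nearly every site that could be tested was a shared one. The median difference was -0.05 over the 66 members and -0.08 over the 29 called, of which 8 were over 0.2 in size and 16 under 0.1. Without the library pair of day 1, 3, 5 or 7 the calls fell to between 16 and 18, and without that of day 10 they were 30 lower and 2 higher. Fewer sites could be tested without day 1, 3, 5 or 7, namely 45 to 56. These included 24 or 25 of the 29 calls, of which 15 to 18 were called again. With each library centred on its mean level over the 39 sites listed everywhere (0.296 to 0.324 in head, 0.361 to 0.392 in trunk, 0.399 to 0.406 in tail), 10 sites were called lower and 24 higher in head, and 13 of the 29 turned their sign. Centring added nearly the same amount, 0.062 to 0.072, to the difference at each site, also where both tissues stood at the ceiling. All directions given here are on the uncentred scale.

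The ceiling bounded the size of these differences. It also fixed their direction where trunk or tail had no cut read, so the counts of lower and higher sites were not free at every site. Calls of this kind include position 423 of TRINITY_DN29714_c0_g1_i1, with 5 trunk libraries at 0.357, and position 236 of TRINITY_DN11867_c10_g1_i1, with 6 at 0.171. Against tail they include position 280 of TRINITY_DN182285_c0_g1_i2, with 6 tail libraries at 0.3. Of the tested sites with a control share under 0.6, head was lower than trunk at 14 of 34, with a median difference of -0.06 over the 34 and a widest one of -0.64. With a control share of 0.6 or more, 15 of 32 were called, with a median of -0.03 and a widest of -0.16. Against tail, 10 of 21 sites with a control share under 0.6 were called and 5 of 21 with a higher one.

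The widest gap between head and trunk was at position 3263 of TRINITY_DN678_c0_g2_i4 (minus strand, 5705 bases). Its level in head was 0.168, 0.126, 0.195, 0.157 and 0.165 on days 0, 1, 3, 5 and 7, with no listing on day 10. The trunk levels were 0.776 at the lowest, 0.798 at the median and 0.809 at the highest, on 4513 reads or more. Every trunk library lay far above every head library (difference -0.64, SE 0.012, limma adjusted p = 7.8e-06). The control's uncut share was 0.179 (40 of 224 reads), so the trunk values stood just under the ceiling and the head values little above the listing minimum.

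A further site on the same contig was also lower in head. At position 448, near the 3′ end of the minus strand, the head levels were 0.162, 0.253, 0.355, 0.410 and 0.345 on days 0 to 7, and the trunk levels lay between 0.806 and 0.846 (difference -0.52, SE 0.041, limma adjusted p = 0.0013). The head spread over days was wide, and still did not reach the trunk. Reads per library were at least 12649 in head and 6581 in trunk.

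Other contigs showed gaps of the same order. At position 745 of TRINITY_DN11867_c10_g1_i1 (minus strand, 1601 bases) the level was 0.130 at the lowest, 0.147 at the median and 0.265 at the highest of 6 head libraries. The 5 trunk libraries stood at 0.729, 0.527, 0.695, 0.711 and 0.684 (difference -0.49, SE 0.031, limma adjusted p = 0.00072). Head and trunk did not overlap. At position 316 of TRINITY_DN26425_c0_g1_i1 (minus strand, 821 bases) head had 0.304, 0.219, 0.318 and 0.164, while trunk was at the ceiling of 0.846 on 4 of 4 days. Reads were as few as 22 in head and 12 in trunk, and only 2 days were shared (difference -0.60, SE 0.060, limma adjusted p = 0.044). Of 8 alternatives 6 called the site, and the highest adjusted p was 0.133.

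No site was called in the opposite direction. The largest tested site with head higher on every shared day was position 554 of TRINITY_DN155747_c0_g1_i1 (minus strand, 1024 bases). Head stood at 0.1999 to 0.2032 over 6 days and trunk at 0.1674 to 0.1997 over 5 days, a difference of 0.01 that did not pass (SE 0.0048, limma adjusted p = 0.0596). Over 15 alternatives that value ran from 0.0003 to 0.133, and 6 of them called the site. Larger differences with head higher occurred at sites that did not keep the sign on every day. The largest was 0.08 at position 2353 of TRINITY_DN1568_c0_g1_i6 (SE 0.027, limma adjusted p = 0.0596). On day 10 head was lower there, at 0.307 against 0.363 in trunk.

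**Figure D3:**
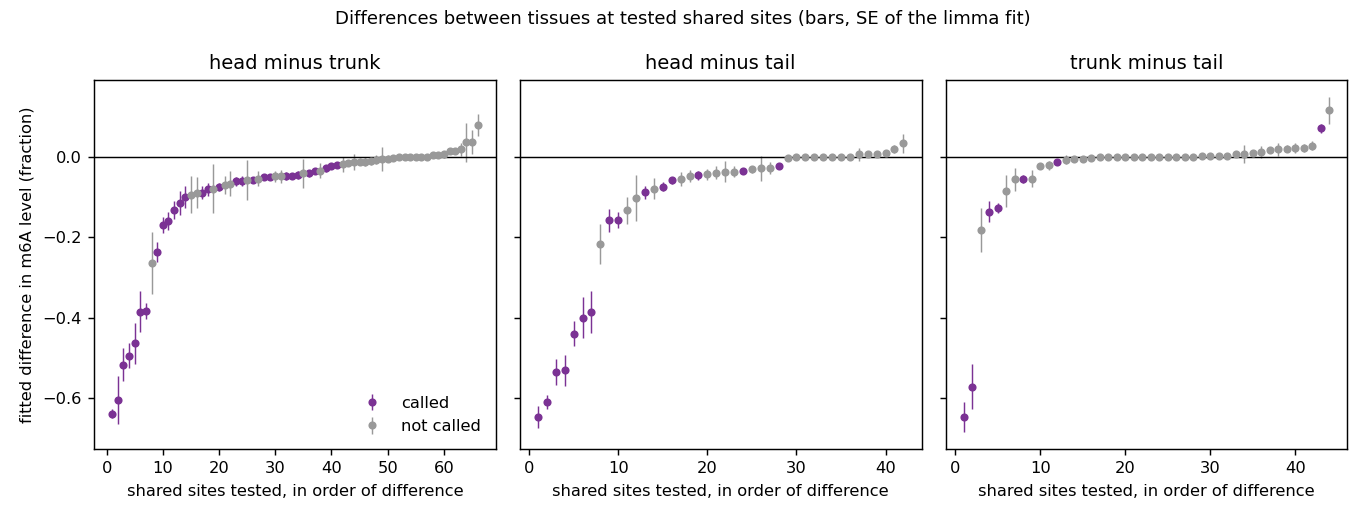
Fitted difference in m6A level (fraction, vertical axis) with its SE at each shared site tested, in order of size, for head minus trunk, head minus tail and trunk minus tail. The called sites of the head comparisons, 29 and 15, are all below 0, and in trunk minus tail 6 are below and 1 above.

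Head was lower than tail at 15 of the 42 shared sites tested, on 10 contigs, and higher at 0 (limma; 24 lower and 0 higher at an unadjusted p under 0.05; 25 lower and 2 higher with the quasi-binomial model). Over all 43 sites tested, 34.9% were called lower and 0% higher in head. The median difference was -0.04 over the 42 members and -0.16 over the 15 called. Among the 15, 12 were also called against trunk. With centred libraries 9 sites were called lower and 22 higher in head, and 5 of the 15 turned their sign.

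Position 1951 of TRINITY_DN1290_c0_g1_i7 (minus strand, 3433 bases) had the widest gap between head and tail. Its level was 0.154 at the lowest, 0.175 at the median and 0.349 at the highest of 6 head libraries, against 0.812, 0.854 and 0.872 in tail (difference -0.65, SE 0.027, limma adjusted p = 1.6e-05). Head and tail did not overlap on any day. Trunk lay between them, with 0.436, 0.553, 0.658, 0.793, 0.741 and 0.828 on days 0, 1, 3, 5, 7 and 10, and it too was called above head (head minus trunk -0.46, SE 0.051, limma adjusted p = 0.0017). The lowest head library here had 15 reads, the lowest trunk library 827 and the lowest tail library 162.

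At position 339 of TRINITY_DN155747_c0_g1_i1 (minus strand, 1024 bases) tail stood apart from both other tissues. The tail level ran from 0.897 to 0.911, the ceiling set by a control share of 0.089 (3758 of 42210 reads). Head had 0.256 at the lowest, 0.373 at the median and 0.495 at the highest, and trunk had 0.113, 0.377 and 0.466. The head and trunk ranges overlapped, and neither reached the tail. The head minus tail difference was -0.54 (SE 0.032, limma adjusted p = 7.9e-05) and the trunk minus tail difference -0.57 (SE 0.055, limma adjusted p = 0.0022).

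The other leading sites of this comparison repeated the first pattern. Position 3263 of TRINITY_DN678_c0_g2_i4 had 0.750 at the lowest, 0.776 at the median and 0.806 at the highest in tail, above the head values given above (difference -0.61, SE 0.017, limma adjusted p = 1.6e-05). Position 448 had 0.813, 0.835 and 0.844 in tail (difference -0.53, SE 0.038, limma adjusted p = 0.00054). On a shorter contig of 465 bases, TRINITY_DN24716_c0_g1_i1, position 153 of the plus strand had 0.233, 0.351 and 0.424 in head and 0.734, 0.778 and 0.847 in tail (difference -0.44, SE 0.030, limma adjusted p = 0.00013). Trunk had 0.662, 0.741 and 0.804 there, so head lay below both other tissues without overlap. No tested shared site was higher in head than in tail on every shared day.

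**Figure D4:**
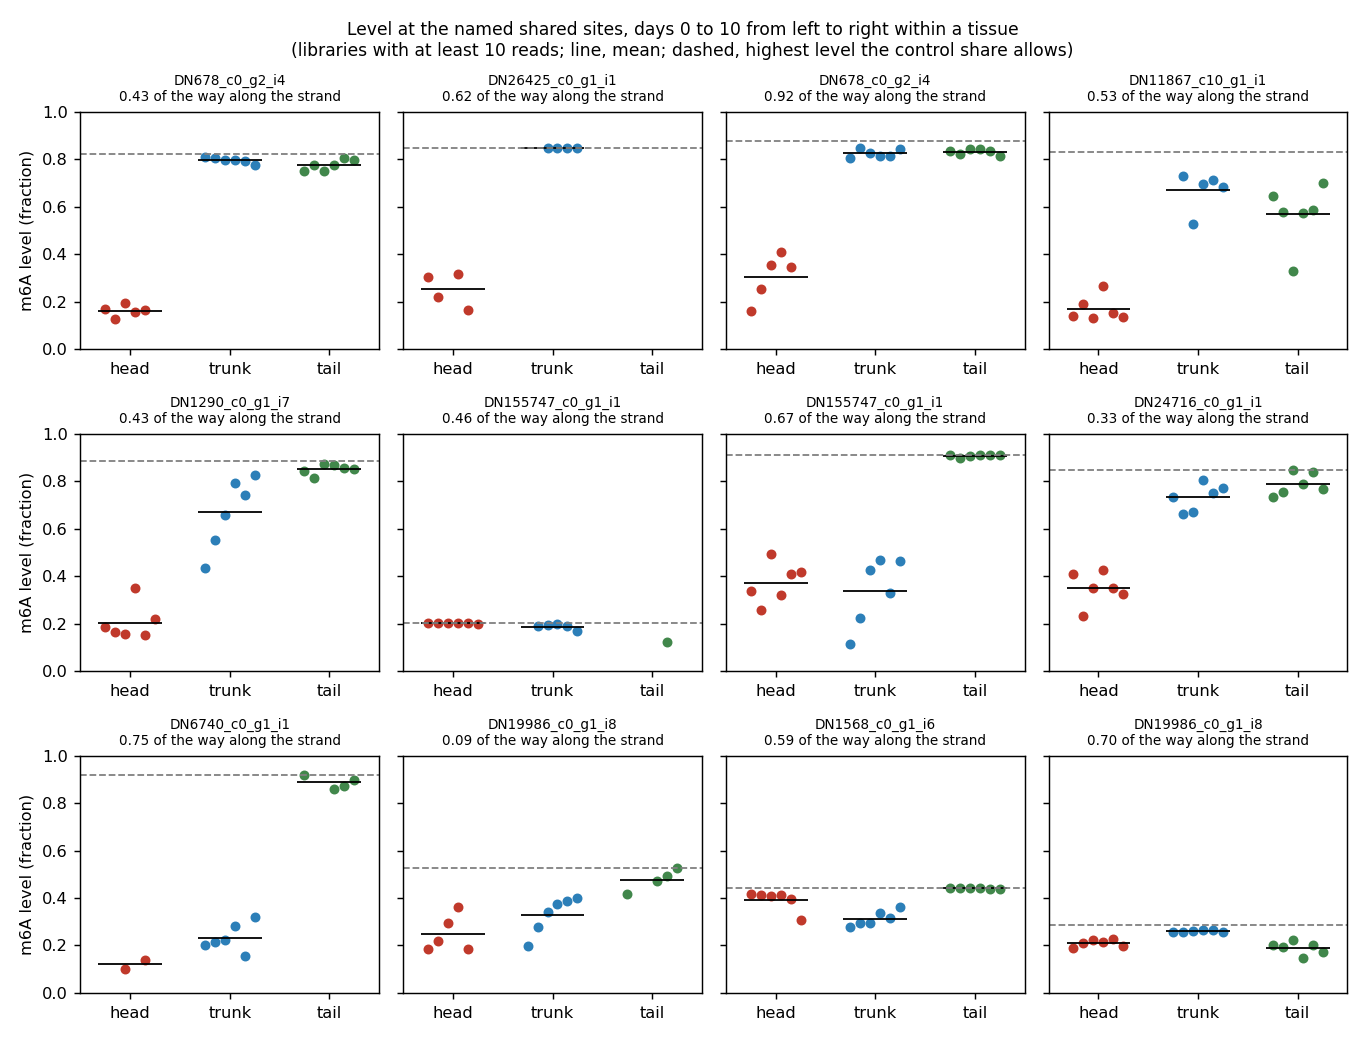
m6A level (fraction) in head, trunk and tail at the 12 shared sites named for the tissue pairs, 1 point per library with at least 10 reads, days 0 to 10 from left to right, with the mean as a line and the highest level the control share allows dashed. At position 1951 of TRINITY_DN1290_c0_g1_i7 (row 2, left) head lies at 0.154 to 0.349 and tail at 0.812 to 0.872, and at position 613 of TRINITY_DN6740_c0_g1_i1 (row 3, left) tail alone lies near the dashed line.

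Trunk and tail differed at fewer shared sites in the fit to the level. Trunk was lower at 6 and higher at 1 of the 44 tested, on 5 contigs (limma; 9 lower and 2 higher at an unadjusted p under 0.05; 13 lower and 6 higher with the quasi-binomial model). Over all 59 sites tested, 20.3% were called lower in trunk and 1.69% higher, and the 15 tested sites that were not shared supplied 6 of the 12 lower calls. The median difference over the 44 members was 0 to the second decimal, at -0.0006. With centred libraries 6 sites were called lower and 15 higher in trunk, and 1 of the 7 turned its sign. On a logit scale of the uncut share, trunk and tail did not differ at fewer sites than head and tail. More of those calls were higher than lower in trunk (counts in the closing section).

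Position 613 of TRINITY_DN6740_c0_g1_i1 (minus strand, 2407 bases) had the widest gap. Trunk had 0.155 at the lowest, 0.218 at the median and 0.32 at the highest of 6 libraries, while the 4 tail libraries had 0.918, 0.859, 0.873 and 0.898 (difference -0.65, SE 0.037, limma adjusted p = 0.0022). The tissues did not overlap. Head was listed with at least 10 reads on days 3 and 7 only, at 0.102 and 0.139, on 494 to 506 reads, the lowest of the 3 tissues. The trunk values rest on 14 to 194 reads and the tail values on 18 to 111.

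Smaller gaps also passed. At position 2353 of TRINITY_DN1568_c0_g1_i6 (plus strand, 3975 bases) trunk had 0.277, 0.304 and 0.363 as lowest, median and highest, and tail had 0.437, 0.442 and 0.442 (difference -0.13, SE 0.013, limma adjusted p = 0.0022). Head had a median of 0.410, and its day 10 library, at 0.307, lay within the trunk range. At position 110 of TRINITY_DN19986_c0_g1_i8 (plus strand, 1196 bases) trunk had 0.198, 0.359 and 0.399 and the 4 tail libraries 0.419, 0.473, 0.491 and 0.526 (difference -0.14, SE 0.026, limma adjusted p = 0.045). Of 10 alternatives 8 called the site, and the highest adjusted p among them was 0.353.

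The same contig held the only call in the other direction. At position 360 on its minus strand, trunk had 0.257, 0.259 and 0.265 and tail 0.149, 0.197 and 0.222 as lowest, median and highest (difference 0.07, SE 0.010, limma adjusted p = 0.0076). Trunk lay above tail on 6 of 6 days. Head, at 0.189 to 0.225, was also below trunk there (difference -0.05, limma adjusted p = 0.0012), a difference that turned to 0.015 and was not called with centred libraries. A single site, chosen here after its values were seen, was called in all 3 pairs. At position 1999 of TRINITY_DN1290_c0_g1_i7 head averaged a level of 0.258, trunk 0.281 and tail 0.294, which is the ceiling. The differences were -0.02 for head against trunk, -0.04 for head against tail and -0.01 for trunk against tail, and all 3 turned their sign with centred libraries, to 0.04, 0.05 and 0.01.

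No shared site was called for a change with time. Of 53 shared sites with enough reads on day 0 and later, 0 passed for later days against day 0 with tissue as a block (limma; 1 lower and 6 higher at an unadjusted p under 0.05; 0 with the quasi-binomial model). Over all 68 sites tested 0% were called. A straight line over the days called 0 of 84 shared sites (0 falling and 4 rising at an unadjusted p under 0.05; 1 rising with the quasi-binomial model), against 0% of 102 sites in all. With 1 library per tissue and day, a change on a single day has no replicate.

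The largest differences over time that kept their sign in every tissue that could be assessed show the size of the spread. At position 3538 of TRINITY_DN678_c0_g2_i4 the later days exceeded day 0 by 0.11 (SE 0.057, limma adjusted p = 0.43). Trunk had 0.620, 0.746, 0.685, 0.776 and 0.525 on days 1, 3, 5, 7 and 10 and 0.454 on day 0, and tail had 0.680 to 0.871 on later days and 0.683 on day 0. Later and day 0 values overlapped in tail and in head. At position 180 of TRINITY_DN19986_c0_g1_i8 (plus strand) the later days differed from day 0 by -0.08 (SE 0.031, limma adjusted p = 0.27). Trunk there had 0.576, 0.550, 0.550, 0.447 and 0.560 on later days and 0.644 on day 0, and tail had 0.581, 0.637, 0.560, 0.585 and 0.632 and 0.660 on day 0. Day 0 was the highest in both tissues, by less than the fit could call. Head had 1 library with at least 10 reads there, that of day 10 at 0.223, so its change could not be assessed. Of the slopes, the largest was at position 1951 of TRINITY_DN1290_c0_g1_i7, at 0.014 per day (SE 0.0056, limma adjusted p = 0.6), with 0.036 per day in trunk and 0.0044 and 0.0023 in head and tail. That trunk rise runs over the 6 values given above, and it was not tested on its own.

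TRINITY_DN678_c0_g2_i4 carried the most shared sites, 18 of its 23 listed sites, 17 of them on the minus strand. Counted over reads, 80.8% ± 8.82 were uncut in head (SD, n = 6 days), 97.8% ± 0.49 in trunk and 97.7% ± 1.55 in tail. The difference between head and the other tissues varied along the contig. At position 3806 head had an uncut share of 0.908 ± 0.0406, trunk one of 0.997 ± 0.0013 and tail one of 0.996 ± 0.0088 (SD, n = 6 days each). Positions 4250 and 4260, which are 10 bases apart and have nearly equal read numbers, had 0.949 and 0.899 in head, 0.997 and 1 in trunk, and 0.999 and 1 in tail. Head was called lower than trunk at all 3 positions, with limma adjusted p = 0.0085 at 3806, 0.024 at 4250 and 0.042 at 4260. With centred libraries none of the 3 was called, and the difference at 4250 was 0.02, against -0.05 on the uncentred scale.

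At some positions every tissue stood near the ceiling. At positions 2266 and 2616 the mean uncut share was 1 in every tissue, to the third decimal, while the control shares were 0.412 and 0.194. Position 1849 had 1, 1 and 1 to the third decimal, against 0.833 in the control. Position 1596 had an uncut share of 0.897 ± 0.151 in head (SD, n = 6 days), one of 0.977 ± 0.0186 in trunk and one of 1 ± 0.0006 in tail. Its levels were 0.157 to 0.537 in head and 0.516 to 0.561 in trunk, all below the tail levels of 0.564 to 0.566, and no pair was called (limma adjusted p = 0.351 for head against trunk, 0.201 for head against tail and 0.0701 for trunk against tail). Position 3538 was partly cut in every tissue, against a control share of 0.0265. Head was called lower than tail there (difference -0.16, SE 0.028, limma adjusted p = 0.012), and no longer with centred libraries (-0.07, adjusted p = 0.064).

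**Figure D5:**
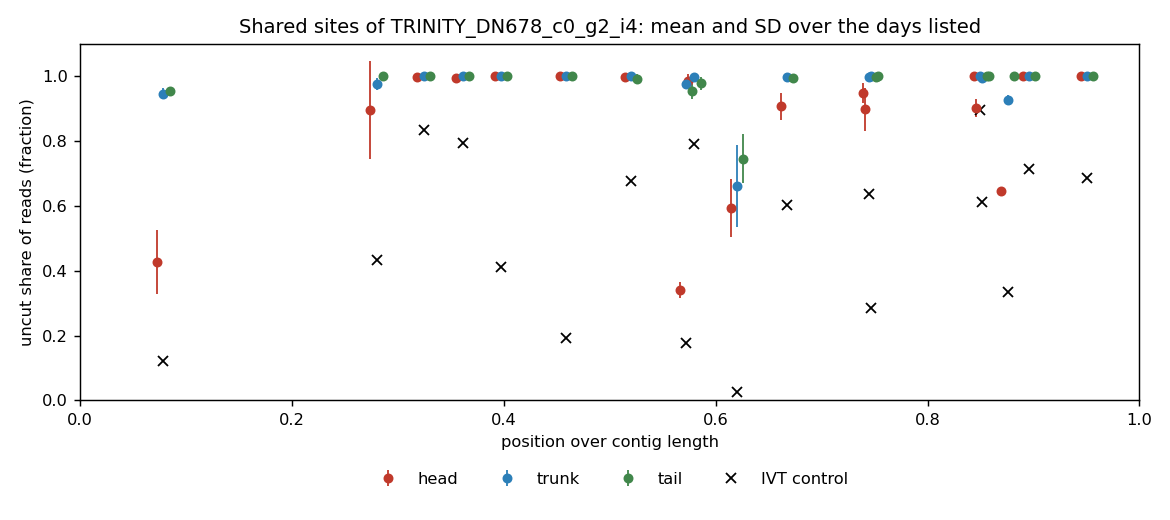
Uncut share of reads (fraction, vertical axis) at the 18 shared sites of TRINITY_DN678_c0_g2_i4 by position over contig length, as mean and SD over the days listed in head, trunk and tail, with the control as crosses. Head falls to 0.341 and 0.427 at 2 sites where trunk and tail stay above 0.94, and all 3 tissues stand near 1 at most other sites.

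The next contigs by number of shared sites were less well covered. TRINITY_DN1221_c0_g1_i11 (3452 bases) and TRINITY_DN420_c1_g1_i2 (1791 bases) carried 9 each, TRINITY_DN42680_c3_g1_i2 (3099 bases) carried 8, and TRINITY_DN1290_c0_g1_i7 and TRINITY_DN60241_c0_g1_i1 (1213 bases) carried 7 each. Only TRINITY_DN1290_c0_g1_i7 was deep, with a median of 577 reads per site and library in head, 2019 in trunk and 269 in tail. Its reads were uncut in 83.9% ± 3.99 of cases in head, 93.3% ± 1.58 in trunk and 94.97% ± 1.67 in tail (SD, n = 6 days). On the other 4 of these contigs the median was 12 reads or fewer per site and library in every tissue.

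The 39 shared sites listed in all 18 libraries lay on 26 contigs. Head had the lowest mean level at 26 of them and the highest at 0, and at 6 all 3 means were equal. At 6 sites every head library lay below every trunk and tail library. No read was cut on any of the 6 days at 8 of the sites in head, 13 in trunk and 20 in tail. Only 16 of the 39 had at least 10 reads in every library.

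The highest mean level among them was at position 314 of TRINITY_DN2841_c0_g1_i3, with 0.823 ± 0.0429 in head (SD, n = 6 days) and 0.869 ± 0.0027 in trunk. All 6 tail libraries stood at 0.870 without a cut read. The next was position 820 of TRINITY_DN16393_c0_g1_i2. Its 6 head libraries ran from 0.270 to 0.848, on as few as 5 reads, and reached the ceiling on a single day, while trunk lay between 0.841 and 0.848 and tail between 0.843 and 0.848. Positions 153 of TRINITY_DN24716_c0_g1_i1, 1951 of TRINITY_DN1290_c0_g1_i7 and 339 of TRINITY_DN155747_c0_g1_i1, described above, followed.

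The lowest mean levels lay at or just under low ceilings. Position 152 of TRINITY_DN870_c17_g1_i2 stood at 0.12 in all 18 libraries, the ceiling set by a control share of 0.88 (22 of 25 reads, 95% Wilson interval 0.700 to 0.958). Position 236 of TRINITY_DN11867_c10_g1_i1 had 0.140 ± 0.0194 in head (SD, n = 6 days) and 0.171 on every day in trunk and tail. Head was called lower than trunk there (difference -0.04, SE 0.0059, limma adjusted p = 0.0092), and with centred libraries the difference turned to 0.03 and was not called. Position 1849 of TRINITY_DN678_c0_g2_i4 had a mean level of 0.166 in head and in trunk and 0.167 in tail. Because the control interval at these sites is wider than the level itself, their levels are known less closely than the spread between libraries shows.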

How the data were processed

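The authors deposited 1 table per tissue library, each beside the same control library. Per the file headers, a row holds the read counts (uncut and total) of library and control for 1 motif position on a contig. The deposited fractions are the uncut shares and the m6A level, their difference. The submitters' processing notes name fastp 0.20.0, FastQC and HISAT2 2.4.2. The counting program and the assembly are not named in the sources used here. In the headers the control's columns carry the letters fto beside IVT and were read as the IVT library. No sample's column was left unmapped.

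Shared sites were found by contig, position and strand. The members, the site lists and the tests were chosen with earlier results of these data known. Levels were fitted with limma 3.58.1 (lmFit, eBayes) in R 4.3.3 over all sites of the series that had at least 10 reads in a library on at least 4 days in both tissues, with day as a block, and p-values were adjusted by Benjamini-Hochberg over all sites tested (threshold 0.05). Later days against day 0 needed day 0 in at least 2 tissues and 6 later libraries, and the slope 9 libraries, with tissue as a block. The minimum of 10 reads was used because a library with 1 read lists a site only when that read is uncut. The code was tested on simulated data. Days stand in for replicates, with 1 library per tissue and day, and the day in the labels pairs the tissues. Nothing says whether tissues were prepared together, so preparation and tissue cannot be told apart. P-values measure the spread between pooled libraries.

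Named sites were, for each tissue pair, the 5 largest called differences with 1 sign on every shared day and the largest opposite one; for time, the largest in each direction with 1 sign in every tissue that could be assessed; the 5 highest and 3 lowest of the sites in all 18 libraries; the contigs with most shared sites; and the closest misses of the rule. Alternatives were other read minimums, no block, logit levels (pseudocount 0.5), a quasi-binomial model, 3 days, sites without cut reads, centred libraries, the top contig left out and each day left out. Reads at listed sites ranged from 12100 to 834034 per library; total depth is unknown. Wilson intervals (95%) cover counting error only. Python 3.11.15, pandas 2.3.3 and matplotlib 3.10.9 were used.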

Additional observations from a re-analysis of the deposited data

Results flagged for a closer look

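In 47 groups of days, the highest or lowest library was checked for a gap from the others that exceeds Dixon's critical value, which chance passes in about 1 of 20 groups, and 6 libraries stood apart. The head library of day 10 listed 314 shared sites, the fewest of the 6 head libraries. It was also the head library with the fewest reads at shared sites, 10432. At position 745 of TRINITY_DN11867_c10_g1_i1 the level on day 3 was the lowest of 5 trunk libraries, at 0.527, and the lowest of 6 tail libraries, at 0.329. The head level at position 1951 of TRINITY_DN1290_c0_g1_i7 was highest on day 5, at 0.349. At position 2353 of TRINITY_DN1568_c0_g1_i6 head had 0.307 on day 10, the lowest of 6 days. At position 3538 of TRINITY_DN678_c0_g2_i4 tail had 0.871 on day 7, the highest of 6 days. What set these libraries apart was not tested.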

How the results depend on the processing

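The balance of directions changed with centring. With each library centred on its mean over the sites listed in all 18, the calls became 10 lower and 24 higher in head against trunk, 9 lower and 22 higher in head against tail (31 in all), and 6 lower and 15 higher in trunk against tail (21). Of the uncentred calls 13 of 29, 5 of 15 and 1 of 7 then turned their sign, and 3, 4 and 0 of these were called the other way. Among the sites named above this held for position 1999 of TRINITY_DN1290_c0_g1_i7 in all pairs (0.042 for head against trunk, 0.052 for head against tail and 0.0092 for trunk against tail, of which the first and second were called), and for head against trunk at position 236 of TRINITY_DN11867_c10_g1_i1 (0.028), 360 of TRINITY_DN19986_c0_g1_i8 (0.015) and 4250 of TRINITY_DN678_c0_g2_i4 (0.016), none of these 3 called. Centring added nearly the same amount to the difference at each site. It was 0.062 to 0.072 for head against trunk, 0.082 to 0.089 for head against tail and 0.012 to 0.024 for trunk against tail. The sites that set this amount include tested sites with wide gaps, and a difference smaller than it turned by that amount alone. The centred directions therefore cannot decide which scale is right, and this was not tested. In no alternative other than centring did a called site turn its sign. For some alternatives this was fixed in advance. The quasi-binomial model took its sign from the level fit. With 3 days, with sites without cut reads, or without the top contig, a site's own difference stayed the same. Leaving out 1 day at a time gave 16 to 32 calls for head against trunk (45 to 62 shared sites tested), 13 to 18 for head against tail and 5 to 7 for trunk against tail. Without the replicate block the counts were 35, 23 and 9. Without a read minimum they were 29, 31 and 7, and with 50 reads 22, 12 and 5. The quasi-binomial model called 29, 27 and 19, and the logit 37, 19 and 21 (8 lower and 13 higher in trunk). For time, no read minimum gave 1 call for later days, and the logit and the quasi-binomial model gave 1 slope each.

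The number of shared sites fell to 377 with at least 2 libraries in each tissue and to 151 with 10 reads in each. With 10 reads head then had a median level of 0.260, trunk 0.330 and tail 0.357, and with 2 libraries trunk had 0.262. The 39 sites in all libraries had medians of 0.281 (head), 0.335 (trunk) and 0.351 (tail). Without the contig with most reads, shared sites held 81.4% of listed reads in head, 74.3% in trunk and 52.8% in tail. Of the 890 sites, 277 had fewer than 10 reads in every library.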
